A study of Mus musculus with 18 samples.

Results

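B cells and plasma cells are marked in tissue RNA by a small set of transcripts, of which 8 were followed here in the prostate of TRAMP mice. They are Igkc (kappa light chain constant region), Ighm and Igha (constant regions of the IgM and IgA heavy chains), Jchain (the joining chain), Mzb1 (an endoplasmic reticulum cochaperone), Cd79a and Cd79b (the signalling chains of the B cell receptor) and Ms4a1 (the CD20 surface protein). The members were listed by symbol, with earlier results of these data known. They are the rows of the deposited expression tables whose Ensembl identifier carries one of these symbols, 8 of 55469 genes. Bulk RNA came from the ventral together with the lateral lobes of male C56NL/6N mice, 3 mice for each of 3 lines at 10 weeks and at 30 weeks of age, 18 libraries in all. Every mouse, controls included, carried TRAMP in the heterozygous state, a transgene in which a probasin promoter drives the SV40 T antigens in prostate epithelium. WT-TRAMP mice had wild-type Elac2. KO-TRAMP mice had lost exon 8 of both Elac2 alleles where Pb-Cre is active, which is the prostate epithelium, so that B cells and other non-epithelial cells were not targeted. A537T-TRAMP mice carried the A537T change of ELAC2 on both alleles in every cell of the body. Each mutant line was compared with littermate-matched WT-TRAMP mice of its age.

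In a B cell, a rearranged variable segment is spliced to a constant gene to make each immunoglobulin chain, and Cd79a and Cd79b carry the signal of the membrane form. IgM is the first class to be made, and class switching replaces the mu constant gene with a downstream gamma, epsilon or alpha gene. Plasma cells secrete immunoglobulin in large amounts, so a few of them can contribute most of the immunoglobulin transcripts of a tissue, while Cd79a, Cd79b and Ms4a1 come mainly from B cells that have not become plasma cells. The joining chain links IgM and IgA into polymers, which epithelial cells carry into secretions through the receptor encoded by Pigr. In bulk RNA, fewer cells of a type and less RNA per cell cannot be told apart.

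The 3 immunoglobulin constant genes among the members are annotated as constant-region genes on the GRCm38 assembly. Igkc lies at chr6:70726435-70726966 on the plus strand, Ighm at chr12:113418558-113422730 and Igha at chr12:113254830-113260236, both on the minus strand. The protein-coding members include Jchain at chr5:88519809-88527891 on the minus strand, Cd79a at chr7:24897381-24902197 on the plus strand, Cd79b at chr11:106311341-106314762 on the minus strand and Ms4a1 at chr19:11249675-11266241 on the minus strand. None of the words of 31 bases in the exons of Igkc, Ighm, Igha, Jchain or Cd79b occurred in another annotated gene. That share was 2.16% for Ms4a1 and 12.2% for Cd79a. It was 55.1% for Mzb1, all of it with SPATA24, so the small counts of Mzb1 are uncertain.

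The reads of immunoglobulin genes are shared among near-identical copies to very different degrees, and the sequences below show this for the genes that the 30-week results turn on. The first set gives the last 120 coding bases of 3 kappa variable segments on chromosome 6, plus strand. Igkv3-2 and Igkv3-4 were prominent in WT-TRAMP libraries at 30 weeks, and Igkv14-126 had reads at that age in both mutant lines and none in WT-TRAMP. Capitals mark bases that differ from Igkv3-2 in an ungapped alignment.
Igkv3-2, chr6:70698948-70699067: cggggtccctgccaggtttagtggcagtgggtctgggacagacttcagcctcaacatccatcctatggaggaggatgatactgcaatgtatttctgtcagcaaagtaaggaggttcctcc
Igkv3-4, chr6:70672258-70672377: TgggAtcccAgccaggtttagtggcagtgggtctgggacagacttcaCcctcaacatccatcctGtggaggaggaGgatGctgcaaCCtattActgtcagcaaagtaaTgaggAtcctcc
Igkv14-126, chr6:67896523-67896642: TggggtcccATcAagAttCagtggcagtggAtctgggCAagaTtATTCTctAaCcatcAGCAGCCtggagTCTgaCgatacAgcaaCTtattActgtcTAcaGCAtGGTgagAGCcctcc

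Igkv3-4 differed from Igkv3-2 at 12 of the 120 positions and had a stretch of 37 identical bases, while Igkv14-126 differed at 43 positions with no identical stretch above 11 bases. Over their exons, 36.5% of the 31-base words of Igkv3-2 and 55.2% of those of Igkv3-4 occurred in another gene, against 5.79% for Igkv14-126. The counts of Igkv3-2 and Igkv3-4 may therefore be split between copies. The second set gives the first 120 bases of 3 gamma heavy chain constant genes on chromosome 12, minus strand, which encode the IgG2c, IgG2b and IgG1 subclasses and carried most IgG RNA of WT-TRAMP at 30 weeks. Capitals mark bases that differ from Ighg2c.
Ighg2c, chr12:113288813-113288932: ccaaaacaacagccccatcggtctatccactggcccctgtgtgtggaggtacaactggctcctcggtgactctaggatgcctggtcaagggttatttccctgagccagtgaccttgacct
Ighg2b, chr12:113307814-113307933: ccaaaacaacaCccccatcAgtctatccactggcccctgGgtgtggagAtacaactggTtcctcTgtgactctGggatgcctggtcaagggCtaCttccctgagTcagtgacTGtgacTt
Ighg1, chr12:113330404-113330523: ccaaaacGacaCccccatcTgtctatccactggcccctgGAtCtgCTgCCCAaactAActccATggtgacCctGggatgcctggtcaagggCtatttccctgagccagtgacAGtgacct

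Ighg2b differed from Ighg2c at 13 of these positions and Ighg1 at 21. Across all exons, 14.98% of the 31-base words of Ighg2c and 9.29% of those of Ighg2b were shared, mainly with each other, so a small part of their reads could not be placed with certainty.

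The libraries held between 9380174 and 14830104 reads, and the values below are the deposited normalized counts, that is, estimated reads divided by 1 scaling factor per library, unless RPM are named, which are reads divided by the total of the library on the usual scale of depth. The 2 tables of an age scale the same WT-TRAMP libraries separately, so each comparison was made within its own table, and the 2 comparisons of an age share their WT-TRAMP mice. The tables also differ in their estimated reads. Between 30.9% and 37.6% of the genes read in a WT-TRAMP library had the same number in both. RPM of WT-TRAMP come from the KO-TRAMP tables. Libraries 1 to 3 were WT-TRAMP, libraries 4 to 6 A537T-TRAMP and libraries 7 to 9 KO-TRAMP at 10 weeks, and libraries 10 to 12, 13 to 15 and 16 to 18 followed in this order at 30 weeks. Some libraries stood apart in tissue content. Summed seminal vesicle markers reached 90508 RPM among A537T-TRAMP libraries at 10 weeks and ranged from 1.06 to 43537 among WT-TRAMP libraries at 30 weeks. Summed neuroendocrine markers ranged from 28.6 to 1438 among KO-TRAMP libraries at 30 weeks.

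The summed level of the 8 members was higher at 30 weeks than at 10 weeks in each line, and highest in WT-TRAMP at 30 weeks. The 8 members summed to 8.55, 23.5 and 11.1 RPM in the WT-TRAMP libraries at 10 weeks and to 143, 151 and 151 at 30 weeks. The KO-TRAMP sums were 8.41, 20.1 and 7.39 at the younger age, against 27.0, 58.3 and 46.4 at the older. The A537T-TRAMP sums were 9.08, 4.07 and 5.61, against 92.2, 43.3 and 52.8. At 30 weeks every WT-TRAMP library lay above every library of either mutant line, while KO-TRAMP and A537T-TRAMP overlapped, and at 10 weeks all 3 lines overlapped. Every 30-week library of a line lay above every 10-week library of that line. These sums cross tables scaled separately and are given as levels without a test. Igkc and Ighm together made up between 55.7% and 85.6% of the sum in each library, so the sum is mainly a measure of kappa light chain and IgM heavy chain RNA.

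**Figure D1:**
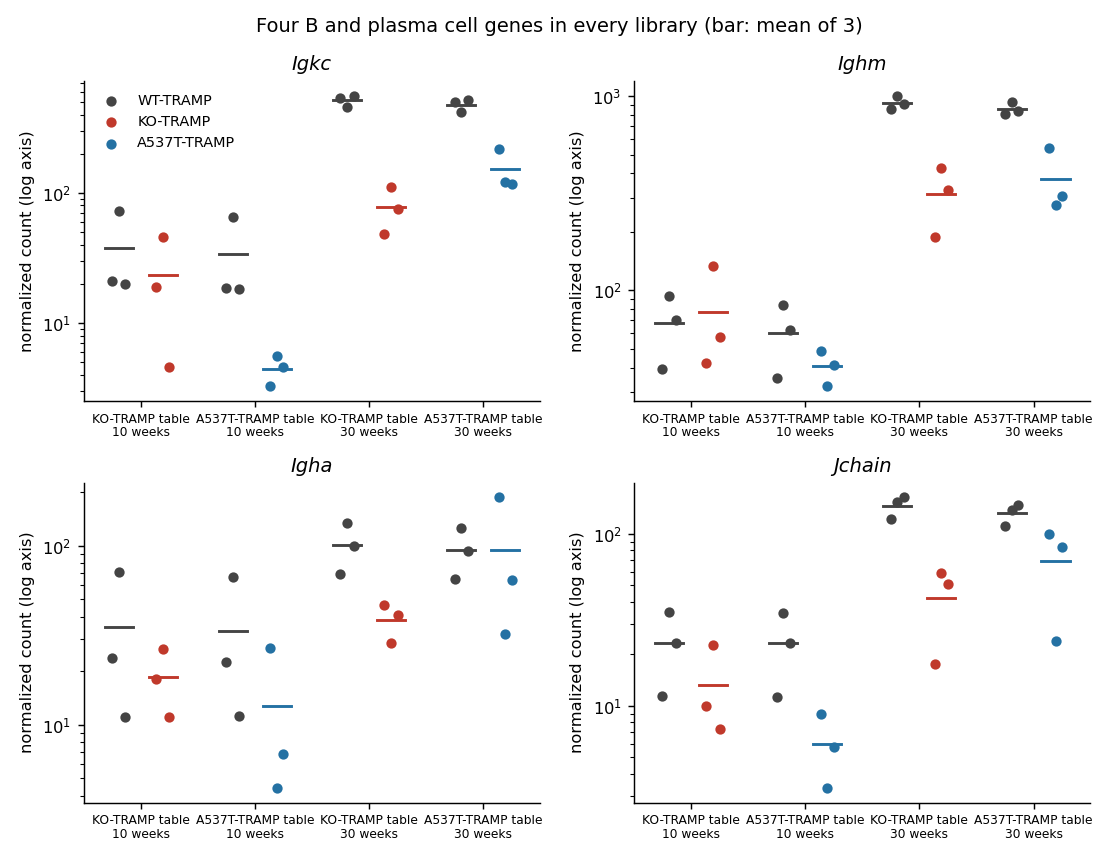
Normalized count, on a log axis, of Igkc, Ighm, Igha and Jchain in every library, with the KO-TRAMP and A537T-TRAMP tables of each age side by side. Points are mice and bars the mean of 3. At 30 weeks the KO-TRAMP points lie below the WT-TRAMP points for each of the 4 genes, and the A537T-TRAMP points do so for Igkc, Ighm and Jchain.

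The level of each member was also expressed per length of exon, as RPM per kb, so that genes could be compared. In WT-TRAMP at 30 weeks Igkc stood at 84.4 ± 9.35 (SD, n = 3) and Ighm at 42.3 ± 2.85. Jchain followed at 4.996 ± 0.68 and Igha at 3.26 ± 1.01. The remaining members were lower, with Mzb1 at 0.56 ± 0.65, Cd79b at 0.55 ± 0.074, Cd79a at 0.15 ± 0.11 and Ms4a1 at 0.11 ± 0.068. Jchain lay above Igha within every WT-TRAMP library, though their ranges overlapped. The range of Mzb1 overlapped those of the other 3 low members, and Cd79b lay above Cd79a and Ms4a1 in every WT-TRAMP library. In KO-TRAMP at 30 weeks Ighm stood at 15.1 ± 6.17 and Igkc at 13.3 ± 5.65, and in A537T-TRAMP Igkc stood at 25.2 ± 9.06 and Ighm at 17.5 ± 6.47. Igkc thus lay above Ighm clear of the spread in WT-TRAMP, and their values overlapped in either mutant line. Of the 8 members, 4, namely Igkc, Ighm, Igha and Jchain, passed in every table the minimum mean normalized count of 10 set for testing, and Mzb1, Cd79a, Cd79b and Ms4a1 did not in any table.

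The comparison of KO-TRAMP with WT-TRAMP at 30 weeks asks how the loss of Elac2 from the epithelium altered the tumour tissue, here its B lineage transcripts. Igkc was lower in KO-TRAMP, and Ighm, Igha and Jchain lay below WT-TRAMP without passing the test. Igkc, the constant part of the light chain used by most mouse antibodies, was at 539, 459.7 and 559.7 normalized counts in WT-TRAMP and at 48.4, 110.1 and 75.2 in KO-TRAMP, which is 14.99% of the WT-TRAMP mean. The groups did not overlap, and Igkc passed the test (log2 fold change −2.79, SE 0.31, limma adjusted p = 0.0432). It was 1 of 4 genes called lower, which is 0.0237% of the 16900 genes tested.

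Ighm, the heavy chain of IgM, was at 861, 1007 and 906 normalized counts in WT-TRAMP and at 187, 425 and 328 in KO-TRAMP, 33.9% of the WT-TRAMP mean. The difference missed the threshold (log2 fold change −1.63, SE 0.30, limma adjusted p = 0.152). Jchain, which joins IgM and IgA subunits, was at 122, 153 and 163 against 17.5, 59.04 and 51.2 (log2 fold change −1.91, SE 0.47, limma adjusted p = 0.284). Igha, the heavy chain of the mucosal class, was at 69.4, 134 and 99.2 against 46.3, 28.4 and 40.7 (log2 fold change −1.35, SE 0.33, limma adjusted p = 0.284). For these 3 genes, as for Igkc, every KO-TRAMP library lay below every WT-TRAMP library, a pattern that 9.48% of the genes tested shared. All 4 had an unadjusted p under 0.05, as did 2289 of the 16900 genes in either direction, and their median log2 fold change was −1.77, against 0.01 over all genes tested. Without library 10, 11, 12 or 18 no member passed. Without library 16, the KO-TRAMP library with the lowest Igkc, all 4 did, among 3064 genes called of 16950 tested, 1163 of them lower. On recovered reads edgeR called none of the 4 (adjusted p = 0.0587 for Igkc) and 15 genes in all. DESeq2 called all 4, among 805 of the 16900 genes, where limma on all 6 libraries called 36.

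The 4 members below the minimum count were rare even in WT-TRAMP at 30 weeks. Cd79b, the beta chain of the B cell receptor complex, was at 8.95, 10.6 and 7.98 normalized counts in WT-TRAMP and at 2.06, 4.37 and 4.18 in KO-TRAMP. Its groups did not overlap, and a fit without the minimum count gave −1.20 on the log2 scale (SE 0.53, limma adjusted p = 0.473). Ms4a1, the surface protein CD20, was at 12.3, 2.88 and 9.12 against 3.09, 0.729 and 4.18, where library 11 of WT-TRAMP lay within the KO-TRAMP range. Cd79a, the alpha chain of the complex, was at 4.48, 0.960 and 2.28 against 1.03, 0.729 and 1.04, a few reads per library. Mzb1, which helps assemble secreted IgM, was at 17.9, 0.960 and 4.56 against 6.17, 1.46 and 1.04, so that a single WT-TRAMP library carried most of it. Without the minimum count the adjusted p was 0.506 for Ms4a1, 0.578 for Cd79a and 0.667 for Mzb1. At this depth no difference in these 3 genes was detectable beyond the spread between mice.

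In A537T-TRAMP at 30 weeks, where every cell of the body carries the changed ELAC2, Igkc, Ighm and Jchain lay below WT-TRAMP, Igha did not, and no member passed the limma threshold. Igkc was at 498, 421 and 513 normalized counts in WT-TRAMP and at 218, 120.4 and 118 in A537T-TRAMP, 31.8% of the WT-TRAMP mean (log2 fold change −1.70, SE 0.25, limma adjusted p = 0.201). Ighm was at 806, 936 and 843 against 539, 277 and 306 (log2 fold change −1.26, SE 0.24, limma adjusted p = 0.357). The A537T-TRAMP libraries lay below the WT-TRAMP libraries for both genes. Jchain was at 111, 137 and 146 against 99.95, 23.8 and 83.7 (log2 fold change −1.14, SE 0.51, limma adjusted p = 0.703), also without overlap.

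Igha overlapped between the groups. It was at 65.3, 126 and 92.8 normalized counts in WT-TRAMP and at 186, 32.2 and 63.8 in A537T-TRAMP, so library 13 lay above and library 14 below all WT-TRAMP libraries. The difference was within this spread (log2 fold change −0.32, SE 0.60, limma adjusted p = 0.933). Groups without overlap were thus seen for 3 of the 4 tested members, and 6.03% of the 16261 genes tested were lower without overlap. By limma 0% of all genes tested were called lower. Of the 4 members, 2 (Igkc and Ighm) had an unadjusted p under 0.05, as did 1173 of all genes in either direction. By edgeR no gene was called, and DESeq2 called Igkc and Ighm among 165 genes. The median log2 fold change of the 4 members was −1.20, against 0.00 over all genes. Without library 13, the A537T-TRAMP library with the highest Igkc and Ighm, limma called Igkc (adjusted p = 0.0221) and Ighm (adjusted p = 0.0305). They were among 6 genes called of 16265 tested.

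Among the rare members of A537T-TRAMP, the means of Ms4a1 and Cd79a lay above WT-TRAMP and those of Cd79b and Mzb1 below it. Ms4a1 was at 11.6, 2.69 and 8.53 normalized counts in WT-TRAMP and at 4.92, 25.0 and 4.98 in A537T-TRAMP. Cd79a was at 4.22, 0.897 and 2.13 against 0.819, 5.96 and 2.99. The A537T-TRAMP library with the most Ms4a1, library 14, also had the most Cd79a and Cd79b of its line, and it was the one with the least Igha and Jchain. Cd79b was at 8.43, 9.86 and 7.47 against 5.74, 8.35 and 0.997, and Mzb1 at 16.9, 0.897 and 4.27 against 6.55, 2.38 and 1.99. The groups of these 4 genes overlapped, and without the minimum count their adjusted p lay between 0.821 and 0.940.

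At 10 weeks the 4 tested members were at low counts, and no difference passed by limma. In KO-TRAMP, Igkc was at 21.0, 72.5 and 19.8 normalized counts in WT-TRAMP and at 18.9, 46.0 and 4.59 in KO-TRAMP. Ighm was at 39.3, 93.7 and 70.5 against 42.3, 133 and 57.9. The highest value of each group of 3 was several-fold the lowest for Igkc, and the groups overlapped for each of the 4 tested members. The log2 fold changes were −0.90 for Igkc (SE 0.81), 0.11 for Ighm (SE 0.47), −0.59 for Igha (SE 0.66) and −0.78 for Jchain (SE 0.57). Leaving out 1 library moved Igkc between −1.61 (without library 8) and −0.078 (without library 9). It turned the sign of Ighm without library 1 (−0.24) or library 8 (−0.36) and that of Igha without library 2 (0.10), and moved Jchain between −1.21 and −0.42. Their limma adjusted p lay between 0.845 and 0.976, no member had an unadjusted p under 0.05 (1026 of all genes did), and edgeR and DESeq2 called none. Over all 15451 genes tested in this comparison, 0.00647% were called lower and 6.26% were lower without overlap. Igha (23.6, 71.2 and 11.01 against 17.98, 26.4 and 11.02) and Jchain (11.4, 35.0 and 23.1 against 9.89, 22.5 and 7.35) also followed library 2, the WT-TRAMP library with the most B lineage RNA at this age.

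In A537T-TRAMP at 10 weeks, Igkc was at 18.5, 65.6 and 18.2 normalized counts in WT-TRAMP and at 3.26, 5.53 and 4.59 in A537T-TRAMP, 13.1% of the WT-TRAMP mean. Jchain was at 11.2, 34.5 and 23.2 against 8.95, 3.32 and 5.73. For both genes every A537T-TRAMP library lay below every WT-TRAMP library, as did 6.53% of the 15438 genes tested. The log2 fold changes were −2.44 for Igkc (SE 0.63, limma adjusted p = 0.600) and −1.73 for Jchain (SE 0.61, limma adjusted p = 0.600). These 2 had an unadjusted p under 0.05, as did 1218 of all genes in either direction. Their A537T-TRAMP means, 4.46 for Igkc and 6.00 for Jchain, were below the minimum mean of 10. Both genes entered the test only through WT-TRAMP, at 34.1 and 23.0, so entry itself favoured a lower value. DESeq2 called Igkc (adjusted p = 0.0447) among 148 genes, edgeR called no gene, and limma called 0.00648% of all genes lower. Ighm (35.3, 84.1 and 62.6 against 48.8, 32.1 and 41.3) and Igha (22.5, 66.8 and 11.1 against 26.9, 4.42 and 6.88) overlapped between the groups, with log2 fold changes of −0.50 and −1.34. The 13 reads of Igkc in the 3 A537T-TRAMP libraries together limit what can be said of it. Libraries 5 and 6 of this group held 9.05% and 1.25% of reads from seminal vesicle markers, and smooth muscle markers summed to between 959 and 2127 RPM in A537T-TRAMP against 383 to 629 in WT-TRAMP. The part of these tissues in the result was not tested. With library 4 as the one A537T-TRAMP library, a choice made after seeing the data, Igkc differed by −2.78 and Igha by 0.05 on the log2 scale.

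The remaining members were almost absent at 10 weeks. Cd79a had no read in the WT-TRAMP or KO-TRAMP libraries and between 1 and 2 reads in each A537T-TRAMP library. Ms4a1 had 1 read in the WT-TRAMP group, 1 in the KO-TRAMP group and 0 in A537T-TRAMP. Mzb1 had 5 reads over the WT-TRAMP libraries, 0 over KO-TRAMP and 4 over A537T-TRAMP libraries, and Cd79b had 4, 5 and 7 reads. The markers that define B cells were thus at or near 0 in the young prostate, where immunoglobulin reads were found in every library. No difference in these genes was detectable at this depth.

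Whether the effect of a line changed with age was tested as the difference of its effects at 30 and 10 weeks, over the 12 libraries of that line's tables. In KO-TRAMP the difference on the log2 scale was −1.74 for Ighm (SE 0.62, limma adjusted p = 0.306), −1.90 for Igkc (SE 0.98, limma adjusted p = 0.408), −1.14 for Jchain and −0.76 for Igha. The sign was negative for each, but no member passed, Ighm had an unadjusted p under 0.05, and edgeR and DESeq2 called none. Of all 15252 genes tested 0% were called lower by limma, with 2054 at an unadjusted p under 0.05 in either direction, while edgeR called 0 and DESeq2 363. In A537T-TRAMP the differences were 0.74 for Igkc, −0.77 for Ighm, 1.02 for Igha and 0.59 for Jchain, with limma adjusted p between 0.738 and 0.827. Here 0% of 15242 genes were called lower by limma, 927 genes had an unadjusted p under 0.05 in either direction, and edgeR called 0 genes and DESeq2 39. No tested member had an unadjusted p under 0.05, and edgeR and DESeq2 called none.

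**Figure D2:**
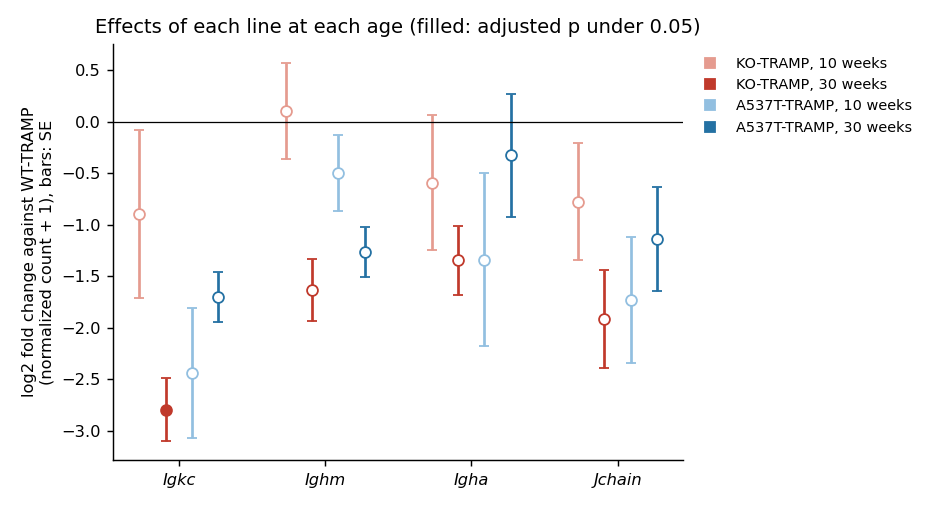
Log2 fold change against WT-TRAMP of Igkc, Ighm, Igha and Jchain for each line and age, on the log2(normalized count + 1) scale, with bars for the SE and a filled point where the limma adjusted p was under 0.05. The filled point is Igkc in KO-TRAMP at 30 weeks, at −2.79, and the SE ranges from 0.24 to 0.84.

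The classes of heavy chain were compared as shares of all heavy chain constant RNA, each gene counted per length of exon. At 30 weeks Ighm was the main class in every library, with 53.4%, 75.4% and 62.6% in WT-TRAMP, 77.0%, 87.6% and 85.9% in KO-TRAMP and 76.6%, 68.4% and 70.5% in A537T-TRAMP. The 4 gamma genes together made up 43.4%, 17.01% and 32.1% in WT-TRAMP and 8.71%, 7.91% and 6.02% in KO-TRAMP. These groups did not overlap, and the smallest two-sided p an exact permutation test of 3 against 3 can give is 0.1, so the shares are reported without a test. In A537T-TRAMP the gamma share was 4.20%, 21.6% and 18.2%, which overlapped both other lines. The WT-TRAMP gamma share was carried mainly by Ighg2c, at 30.5%, 12.7% and 24.1%, against 3.61%, 4.70% and 3.11% in KO-TRAMP and 0.497%, 8.38% and 14.7% in A537T-TRAMP. Igha made up 3.04%, 7.11% and 4.84% in WT-TRAMP, 13.5%, 4.14% and 7.54% in KO-TRAMP and 18.7%, 5.63% and 10.4% in A537T-TRAMP, with overlap between the lines. Ighe, the IgE class, had no read in any library. Between 252 and 1405 heavy chain reads stood behind each 30-week library. At 10 weeks between 38 and 178 reads did, and Ighm made up between 50.1% and 83.3%.

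The gamma genes were also compared one by one. Ighg2c, the constant gene of IgG2c, was at 346, 119 and 245 normalized counts in WT-TRAMP at 30 weeks and at 6.17, 16.04 and 8.35 in KO-TRAMP, 4.31% of the WT-TRAMP mean. The difference (log2 fold change −4.38, SE 0.51, limma adjusted p = 0.0501) lay just outside the threshold, and passed with a pseudocount of 5 or without the minimum count. In A537T-TRAMP it was at 2.46, 23.8 and 44.9 against 321, 109 and 226 (log2 fold change −3.67, SE 0.92, limma adjusted p = 0.516). Neither group of mutant libraries overlapped with WT-TRAMP.

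Ighg2b, the constant gene of IgG2b, was at 181, 68.1 and 103 normalized counts in WT-TRAMP and at 15.4, 19.0 and 14.6 in KO-TRAMP (log2 fold change −2.66, SE 0.40, limma adjusted p = 0.0923). In A537T-TRAMP it was at 9.01, 62.0 and 15.9 against 160.2, 59.2 and 89.6, where library 14 lay within the WT-TRAMP range. Ighg1, of IgG1, was at 92.9, 3.84 and 50.2 in WT-TRAMP and at 1.03, 0 and 0 in KO-TRAMP, a gene that varied widely between the WT-TRAMP mice themselves. Ighg3, of IgG3, was at 16.8, 9.60 and 10.3 against 1.03, 2.92 and 1.04 in KO-TRAMP, without overlap and below the minimum count. In A537T-TRAMP Ighg3 was at 26.2, 13.1 and 3.99 against 13.7, 7.17 and 7.47, with overlap (log2 fold change 0.30, SE 0.72, limma adjusted p = 0.950). Of the 9 other constant genes, 3 could be tested for KO-TRAMP and 6 for A537T-TRAMP at 30 weeks. By limma none of either set passed, and 3 of each had an unadjusted p under 0.05 in the lower direction. Over all genes, 2289 of 16900 and 1173 of 16261 did so in either direction. edgeR called none, and DESeq2 called Ighg1, Ighg2b and Ighg2c in KO-TRAMP and Ighg1 and Ighg2c in A537T-TRAMP. Ighg1 passed the minimum mean only through WT-TRAMP (48.96 against 0.343 in KO-TRAMP, 45.6 against 0.332 in A537T-TRAMP). It could thus only come out lower, and its calls are no test of direction. At 10 weeks 1 of the 9, Ighg2b, could be tested for KO-TRAMP and 0 for A537T-TRAMP.

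**Figure D3:**
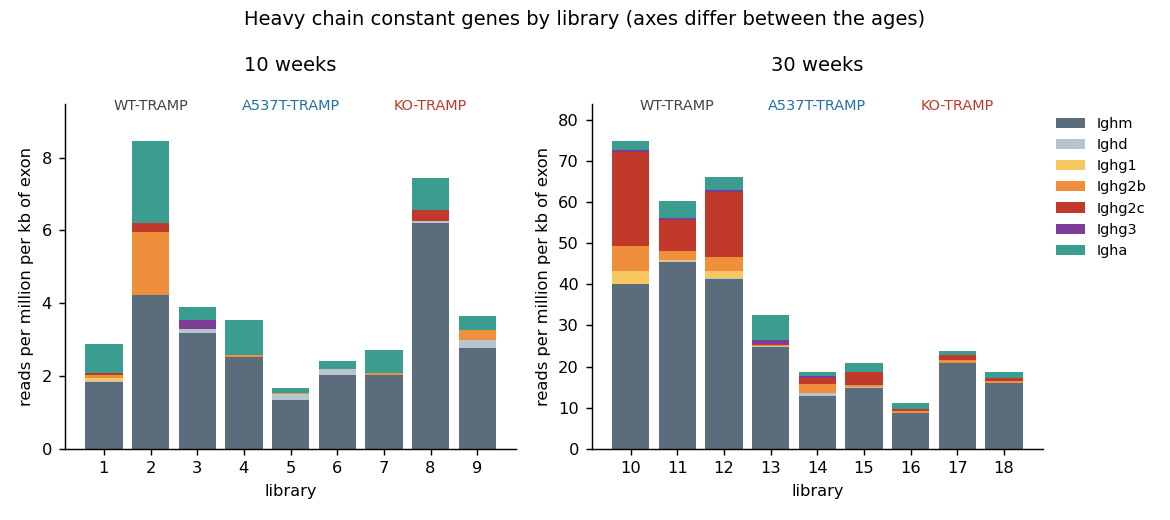
Heavy chain constant genes in every library as RPM per kb of exon, stacked by gene, with separate axes for 10 and 30 weeks. The Ighg2c part is large in the WT-TRAMP libraries at 30 weeks (12.7% to 30.5% of the bar) and small in the KO-TRAMP libraries (3.11% to 4.70%).

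The light chains were read in the same way. Kappa made up 94.4%, 96.8% and 96.3% of light chain constant RNA per length in WT-TRAMP at 30 weeks, 95.8%, 81.2% and 84.6% in KO-TRAMP and 91.4%, 69.1% and 69.0% in A537T-TRAMP. Every A537T-TRAMP library lay below every WT-TRAMP library, and KO-TRAMP library 16 lay within the WT-TRAMP range. Iglc1, a lambda constant gene, was at 20.1, 6.72 and 10.3 normalized counts in WT-TRAMP and at 1.03, 10.2 and 3.13 in KO-TRAMP, and in the other table at 19.0, 6.28 and 9.60 in WT-TRAMP and 6.55, 26.2 and 3.99 in A537T-TRAMP. Iglc2, another lambda constant gene, was at 7.38, 5.38 and 8.53 in WT-TRAMP and at 8.19, 25.04 and 52.8 in A537T-TRAMP (log2 fold change 1.55, SE 0.69, limma adjusted p = 0.702). In the KO-TRAMP table Iglc2 was at 6.71, 4.80 and 7.98 against 1.03, 11.7 and 11.5. The groups overlapped for both genes, and 19.6% of the 31-base words of Iglc2 were shared with other genes. The ratio of light to heavy chain RNA per length was 1.26, 1.26 and 1.42 in WT-TRAMP, 0.736, 0.991 and 0.825 in KO-TRAMP and 1.20, 1.53 and 1.39 in A537T-TRAMP. The ratio was thus lower in each KO-TRAMP library than in each library of the other lines, and is given without a test for the same reason as the shares.

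Variable segments are the parts of immunoglobulin genes that differ between B cell clones, and 348 of them were listed in the tables. At 30 weeks they held 496, 515 and 412 reads in WT-TRAMP, 70, 189 and 97 in KO-TRAMP and 295, 140 and 148 in A537T-TRAMP. As RPM these were 48.6, 42.1 and 40.5 in WT-TRAMP, 6.23, 12.7 and 9.31 in KO-TRAMP and 21.0, 14.6 and 13.4 in A537T-TRAMP. The 3 lines did not overlap, and WT-TRAMP was the highest and KO-TRAMP the lowest. Heavy chain segments and kappa segments both took part, at 15.5 to 22.6 and 22.3 to 25.1 RPM in WT-TRAMP and at 3.03 to 5.66 and 2.85 to 6.14 in KO-TRAMP. At 10 weeks the totals were 34, 60 and 22 reads in WT-TRAMP, 16, 53 and 11 in KO-TRAMP and 18, 3 and 6 in A537T-TRAMP.

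**Figure D4:**
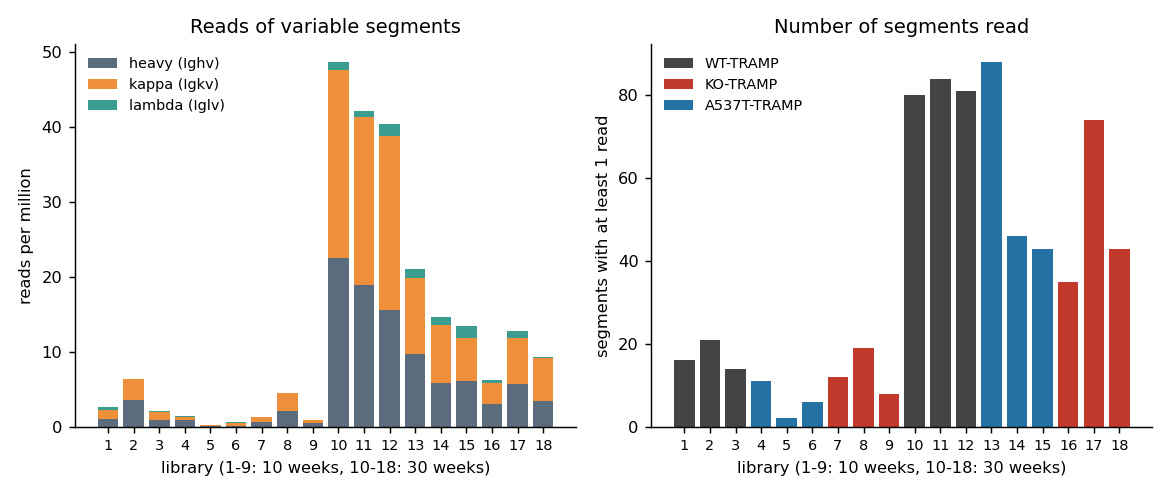
Left, RPM of heavy, kappa and lambda variable segments in each library. Right, the number of segments with at least 1 read, which was 80 to 84 in WT-TRAMP, 35 to 74 in KO-TRAMP and 43 to 88 in A537T-TRAMP at 30 weeks and also depends on the number of reads.

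The reads were spread over many segments rather than held by 1. The segment with the most reads took 5.44%, 11.5% and 8.98% of variable segment reads in the WT-TRAMP libraries at 30 weeks, 10.0%, 4.76% and 10.3% in KO-TRAMP and 5.08%, 9.29% and 10.8% in A537T-TRAMP. These shares overlapped between the lines. The leading segments were Ighv1-78, Ighv1-18 and Igkv6-15 in library 10, Igkv3-2, Igkv1-117 and Igkv5-43 in library 11, and Igkv3-2, Igkv3-4 and Igkv1-117 in library 12, all WT-TRAMP. In KO-TRAMP 1 library, number 17, had at least 100 such reads, and Iglv1, Igkv14-126 and Ighv5-17 led it with 9 reads each. In A537T-TRAMP the leading segments were Igkv5-43, Igkv4-74 and Iglv1 in library 13, Igkv4-91, Ighv1-26 and Ighv6-3 in library 14, and Ighv7-3, Iglv2 and Igkv10-96 in library 15, so no leading segment was common to its 3 mice.

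Igkv3-2, with 59 reads in library 11 and 37 in library 12, was at 4.48, 56.6 and 42.2 normalized counts in WT-TRAMP, at 4.12, 5.10 and 1.04 in KO-TRAMP and, in the other table, at 2.46, 1.19 and 0 in A537T-TRAMP. Its neighbour Igkv3-4 was at 17.9, 24.0 and 29.6 in WT-TRAMP, at 0, 5.83 and 1.04 in KO-TRAMP and at 0, 1.19 and 0 in A537T-TRAMP. As the sequences above show, these 2 share long stretches, and their separate values are uncertain. Igkv14-126, whose sequence stands apart, was at 0 in the 3 WT-TRAMP libraries, at 1.03, 6.56 and 1.04 in KO-TRAMP and at 1.64, 2.38 and 3.99 in A537T-TRAMP, which are at most 9 reads. Igkv3-2 and Igkv3-4 were picked as leading segments of WT-TRAMP libraries, and Igkv14-126 as one of a KO-TRAMP library. Their contrasts between the lines thus follow in part from the same values that picked them. In fits without the minimum count 148 segments could be tested in KO-TRAMP. Of these 109 had a fold change below 0, beside 14188 of all 28663 genes, with a median of −0.61 against 0.01 over all genes. In A537T-TRAMP 101 of 149 segments had one, beside 14714 of 27783 genes, with a median of −0.39 against −0.02. A segment entered these fits with a read in any library, and WT-TRAMP held the most segment reads. Segments read in WT-TRAMP alone could only fall below 0, so these counts are no test of direction. By limma 0 segments passed in either line, with 36 and 27 at an unadjusted p under 0.05, beside 3049 of 28663 and 1783 of 27783 genes in the same fits. Of the 4 segments in each table that passed the minimum count edgeR called none, and DESeq2 called Ighv1-80 in KO-TRAMP and Igkv3-2 and Igkv3-4 in A537T-TRAMP.

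Genes outside the immunoglobulin loci were followed through lists of the B cell surface and its signalling (13 genes), transcription factors of the lineage (8), plasma cell surface and secretory genes (10), and IgA transport, survival and homing factors (12). By limma none of the genes that could be tested in these lists passed in any of the 4 comparisons, and edgeR called none. In KO-TRAMP at 30 weeks 7, 6, 9 and 5 genes of these lists were tested, and their median log2 fold changes were 0.08, −0.09, −0.01 and −0.11. At an unadjusted p under 0.05 there were 0, 0, 3 and 0, and at 10 weeks 1, 0, 2 and 1 in KO-TRAMP and 0, 0, 0 and 1 in A537T-TRAMP. In A537T-TRAMP at 30 weeks 7, 5, 8 and 5 genes were tested, and the medians were 0.23, 0.09, 0.27 and −0.14, with 1, 2, 2 and 0 genes at an unadjusted p under 0.05. DESeq2 called Derl3 and Sdc1 in KO-TRAMP at 30 weeks and Pigr in KO-TRAMP at 10 weeks. Beside the members, whose medians at 30 weeks were −1.77 and −1.20, these lists showed no shift of that size.

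Several genes in the lists are known to be made by other cell types too, so they are not markers of the B lineage alone. Of the surface list, the adaptor Blnk was at 619, 791 and 728 normalized counts in WT-TRAMP at 30 weeks and at 821, 250.0 and 437 in KO-TRAMP, and Cd72, an inhibitory receptor, was at 86.2, 104 and 94.6 against 133, 70.0 and 108. The groups overlapped for both. The scaffold Bank1 was at 95.1, 66.2 and 112 against 62.8, 40.8 and 65.8, without overlap (log2 fold change −0.68, SE 0.30, limma adjusted p = 0.384). The complement receptor Cr2 ranged from 0.960 to 105 in WT-TRAMP and from 0 to 19.8 in KO-TRAMP, and it reached 329 in library 5 of A537T-TRAMP at 10 weeks, where Ms4a1 had no read. In A537T-TRAMP at 30 weeks Cd72 was at 59.8, 62.0 and 55.8 against 86.4, 102 and 93.9 in WT-TRAMP (log2 fold change −0.66, SE 0.17, limma adjusted p = 0.532).

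Among the transcription factors, Xbp1, which drives the secretory programme of plasma cells and of gland epithelium, was at 2433, 2535 and 2469 normalized counts in WT-TRAMP at 30 weeks and at 3136, 1743 and 2157 in KO-TRAMP. Ebf1, an early B cell factor also used in stroma, was at 47.0, 105 and 49.0 against 103, 101 and 83.5, and Prdm1, the plasma cell factor Blimp-1, at 49.2, 43.2 and 31.9 against 48.4, 30.6 and 40.7. These groups overlapped. Pou2f2, an octamer-binding factor of B cells, was at 82.2, 47.5 and 46.9 in WT-TRAMP and at 23.8, 27.4 and 12.0 in A537T-TRAMP, without overlap (log2 fold change −1.47, SE 0.40, limma adjusted p = 0.566).

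Among the secretory genes, Tent5c, a poly(A) polymerase that stabilises immunoglobulin mRNA, was at 2561, 3182 and 2925 normalized counts in WT-TRAMP at 30 weeks and at 3108, 979.6 and 1766 in KO-TRAMP. The disulphide isomerase Txndc5 was at 1723, 1968 and 1851 against 2043, 1680.0 and 1773. Both overlapped between the groups. Sdc1, the plasma cell surface marker CD138 that epithelium also makes, was at 488, 593 and 559 against 847, 1057 and 886, higher without overlap (log2 fold change 0.76, SE 0.14, limma adjusted p = 0.140). Derl3, which exports misfolded protein from the endoplasmic reticulum, was at 370.4, 394 and 388 against 266, 156 and 179, lower without overlap (log2 fold change −0.97, SE 0.22, limma adjusted p = 0.244). Sdc1 and Derl3 thus lay on opposite sides of WT-TRAMP while Igkc was lower. In every library of the study Derl3 had between 156 and 677 normalized counts, also at 10 weeks where Mzb1 had at most 3 reads in a library.

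Pigr, the receptor that carries polymeric IgA and IgM across epithelium, was the most abundant gene of these lists. It was at 13945, 25844 and 19438 normalized counts in WT-TRAMP at 30 weeks, at 36698, 7338 and 18304 in KO-TRAMP and, in the other table, at 16681, 14994 and 15382 in A537T-TRAMP against 12769, 23482 and 17667. At 10 weeks it was at 22461, 23848 and 12839 in WT-TRAMP and at 11652, 10135 and 12054 in KO-TRAMP, lower without overlap (log2 fold change −0.76, SE 0.23, limma adjusted p = 0.716). Library 5 of A537T-TRAMP held 974. The survival factors Tnfsf13 (APRIL) and Tnfsf13b (BAFF) and the mucosal chemokine Ccl28 were between 22.6 and 73.0 in every 30-week KO-TRAMP or WT-TRAMP library of their table. For Tnfsf13 the KO-TRAMP libraries lay below WT-TRAMP (48.4, 39.4 and 40.7 against 61.5, 66.2 and 52.4) (log2 fold change −0.48, SE 0.23, limma adjusted p = 0.399).

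Markers of other cell types were summed beside the members. T cell markers (12 genes) were at 20.03 to 25.4 RPM in WT-TRAMP at 30 weeks, at 23.3 to 28.02 in KO-TRAMP and at 19.9 to 21.9 in A537T-TRAMP, overlapping between WT-TRAMP and each line. Plasmacytoid dendritic cell markers (5 genes) were at 15.5 to 19.5, 16.7 to 21.9 and 15.96 to 19.1. Pan-leukocyte markers (4 genes) were at 77.1 to 232, 76.9 to 149 and 70.1 to 259. Macrophage markers (10 genes) were at 130 to 157 in WT-TRAMP, at 356 to 394 in KO-TRAMP and at 162 to 265 in A537T-TRAMP. In KO-TRAMP 9 of the 10 were tested, all with a fold change above 0, and 2 passed, beside 32 genes called higher among the 16900 tested. One was Lyz2, the lysozyme of macrophages (log2 fold change 2.00, SE 0.11, limma adjusted p = 0.0135). The other was C1qb, a chain of complement C1q (log2 fold change 1.09, SE 0.11, limma adjusted p = 0.0415). edgeR called 1 of the list and DESeq2 8. The members thus differed from WT-TRAMP downwards in tissue whose tested macrophage markers had fold changes above 0 and whose summed T cell markers overlapped. Of the 9 T cell markers tested in KO-TRAMP, 6 had a fold change below 0 and 3 above. By limma 1 in each direction had an unadjusted p under 0.05. Cd8a, a chain of the coreceptor of cytotoxic T cells, was the 1 that lay below WT-TRAMP without overlap (log2 fold change −1.08, SE 0.43, limma adjusted p = 0.368). That pattern was shared by 9.48% of all genes tested.

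Adipose and seminal vesicle RNA, from tissues next to the prostate, also differed between the 30-week libraries. Adipose markers (6 genes) were at 37.9 to 116 RPM in WT-TRAMP, at 4.36 to 47.8 in KO-TRAMP and at 2.50 to 12.1 in A537T-TRAMP. Ucp1, the uncoupling protein of brown fat, was at 54.8, 259 and 162 normalized counts in WT-TRAMP and at 2.06, 1.46 and 1.04 in KO-TRAMP (log2 fold change −5.74, SE 0.64, limma adjusted p = 0.0432). It passed the minimum mean only through WT-TRAMP. All 5 tested adipose markers had a fold change below 0 in KO-TRAMP. As a sum they were at 47.8 RPM in KO-TRAMP library 17 and 37.9 in WT-TRAMP library 10, whose members summed to 58.3 and 143. The part of adipose RNA in the result was not tested. Adipose markers of KO-TRAMP and WT-TRAMP overlapped as a sum. Lymphoid tissue stroma markers (Ccl19, Ccl21a, Glycam1, Cxcl13 and Madcam1) were higher in both mutant lines, at 2.78 to 4.61 in WT-TRAMP, 7.74 to 13.01 in KO-TRAMP and 5.63 to 13.96 in A537T-TRAMP. Erythrocyte markers (5 genes) were at 15.3 to 16.6 in WT-TRAMP, 24.4 to 54.1 in KO-TRAMP and 12.1 to 34.0 in A537T-TRAMP, and prostate luminal markers (8 genes) at 2995 to 3477, 2341 to 2919 and 2754 to 3743. Their part in the result was not tested. Seminal vesicle markers (8 genes) were at 43537 RPM at most in WT-TRAMP and at 1.06 in library 11, whose members summed to 151. Without libraries 10 and 12, a choice made after seeing the data that leaves 1 WT-TRAMP mouse, Igkc had a log2 fold change of −2.62 in KO-TRAMP. Without the KO-TRAMP libraries 17 and 18, in which the neuroendocrine markers were high, Igkc had one of −3.39 and Ighm one of −2.29. That choice was also made after seeing the data and leaves 1 KO-TRAMP mouse. The part of seminal vesicle or neuroendocrine content in the result was not tested.

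**Figure D5:**
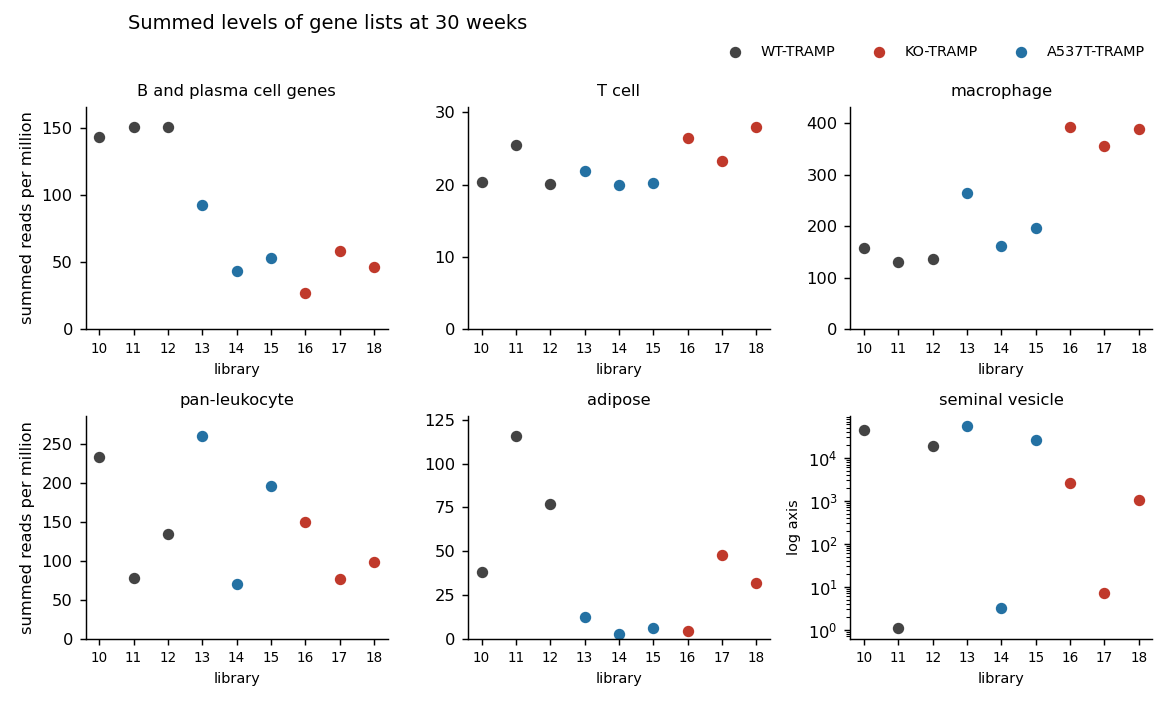
Summed RPM of the 8 B and plasma cell genes and of 5 marker lists in each 30-week library, on linear axes from 0 except for the seminal vesicle list, whose axis is logarithmic. The members are highest in the WT-TRAMP libraries 10 to 12, macrophage markers are highest in the KO-TRAMP libraries 16 to 18, and T cell markers are at 19.9 to 28.02 throughout.

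Across libraries the secreted-antibody genes followed each other closely. On log2(RPM + 1), Pearson's r over the 18 libraries was 0.95 between Ighm and Igkc, between Jchain and Igkc and between Jchain and Ighm. Within the 9 libraries of 30 weeks these were 0.95, 0.87 and 0.92, while Igha had an r of 0.62 with Igkc and 0.62 with Ighm. Ms4a1 and Cd79a formed another pair, with an r of 0.92 at 30 weeks, and had an r of 0.22 and 0.19 with Igkc. Cd79b had an r of 0.75 with Igkc and 0.74 with Ighm at 30 weeks. These are descriptions over libraries that share depth and tissue content, and for Ms4a1 and Cd79a they rest on at most 21 reads a library. The 10 genes outside the immunoglobulin loci whose level was most like the sum of the members over the 18 libraries, among 16043 ranked, were Gm12888, 4732491K20Rik, Prdm10, Zfyve16, Spred3, Hp, Dpy19l4, Cdkn2a, Mier1 and Gm43018, with r between 0.84 and 0.88. Within the 30-week libraries r ranged from −0.41 for Cdkn2a to 0.91 for Zfyve16, and it was below the value over 18 libraries for each gene but Zfyve16.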

How the data were processed

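Total RNA of 18 prostates was sequenced as TruSeq libraries on a NovaSeq. The authors trimmed reads with Trim Galore 0.4.1 and cutadapt 1.18, aligned them with STAR 2.7.3a to GRCm38 with nuclear mitochondrial insertions masked, quantified GENCODE genes with Salmon using strand, and scaled them with DESeq2 1.26. The authors deposited 4 tables of 6 libraries holding a normalized count signal, in which 100% of values were whole multiples of the value of 1 read (within 0.01), so reads were recovered. The 4 deposited tables of fold changes, posterior SDs and s-values were not used. The columns found in both tables of an age were taken as WT-TRAMP. Symbols were matched for 55107 of 55469 identifiers, and positions and sequences came from GENCODE transcripts on GRCm38.

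Each table was fitted with limma 3.58.1 (lmFit, eBayes with trend, R 4.3.3) on log2(normalized count + 1), which understates changes of low genes, for genes with a mean of at least 10. P-values are two-sided and Benjamini-Hochberg adjusted over all genes tested, with a threshold of 0.05, and measure the spread between these 3 mice a group. Alternatives were pseudocounts of 5 and 0.1, no minimum, a minimum of 50, robust eBayes, edgeR 4.0.16 with TMM, DESeq2 1.42.0 and leaving out libraries. The fits were tested on simulated data. Summaries used Python 3.11.15, pandas 2.3.3 and numpy 2.4.6. The members and lists were chosen with earlier results of these data known. Named from each list were genes past the threshold (there were none) and the 4 with the highest mean, the 3 leading variable segments of each library with at least 100 such reads, and the 10 genes most like the members; other genes were named after their values were seen, as were Ighv1-80 and the marker genes.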

Additional observations from a re-analysis of the deposited data

Results flagged for a closer look

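Bank1 and Derl3 were on opposite sides of WT-TRAMP at the 2 ages in KO-TRAMP, with every KO-TRAMP library above every WT-TRAMP library at 10 weeks and below every one at 30 weeks. Bank1 had a log2 fold change of 2.05 at 10 weeks and −0.68 at 30 weeks, and the difference of the effects was −2.73 (SE 0.95, limma adjusted p = 0.302). At 10 weeks its normalized count was 49.4, 44.1 and 36.7 in KO-TRAMP against 1.75, 13.7 and 28.6 in WT-TRAMP. Derl3 had a log2 fold change of 0.71 at 10 weeks and −0.97 at 30 weeks, and the difference was −1.68 (SE 0.34, limma adjusted p = 0.188). Its normalized count at 10 weeks was 677, 663 and 664 in KO-TRAMP against 281, 427 and 572 in WT-TRAMP. Both differences missed the threshold by limma, and DESeq2 called that of Derl3, among 363 of 15252 genes. The 2 genes were flagged for this reversal, so their differences follow in part from the same values that picked them and are no independent test.

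Eaf2, an elongation factor gene of the plasma cell list, was below WT-TRAMP in every KO-TRAMP library at 30 weeks (log2 fold change −1.04) and above it in every A537T-TRAMP library (0.35). Its normalized count was 78.2, 28.4 and 60.6 in KO-TRAMP against 97.4, 113 and 109, and 131, 116 and 118 in A537T-TRAMP against 87.5, 101 and 97.1. The difference between the lines was not tested.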

How the results depend on the processing

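Depth limits Mzb1, Cd79a, Cd79b and Ms4a1, and every member at 10 weeks. For single members under the alternatives, 337 values kept their direction and their side of the threshold, 12 became called, 6 were no longer called and 5 changed sign. In KO-TRAMP at 30 weeks, where limma called 1 member, edgeR called 0, DESeq2 4, and leaving out 1 library gave 0 to 4. Leaving out 1 library took Igkc between −3.08 and −2.50 on the log2 scale, with an adjusted p between 0.00702 and 0.349. In A537T-TRAMP, where limma called 0, DESeq2 called 1 at 10 weeks and 2 at 30 weeks, and leaving out 1 library gave 0 to 2 at 30 weeks. The sign turned for Ighm in KO-TRAMP at 10 weeks without library 1 (−0.24) or 8 (−0.36), with a range from −0.36 to 0.45, and for Igha there without library 2 (0.10; range −1.19 to 0.10). With A537T-TRAMP it turned for Igha without library 14 at 30 weeks (0.25; range −0.99 to 0.25) and, at 10 weeks, without libraries 5 and 6 (0.0549). The fits without pairs of libraries were chosen after seeing the data, and a lone mouse was assumed to vary like the others. Over all genes in KO-TRAMP at 30 weeks limma called 36, edgeR 15, DESeq2 805 and limma without library 16 3064; the cause was not tested. At 10 weeks DESeq2 called 81 genes for KO-TRAMP (limma 2, edgeR 0) and 148 for A537T-TRAMP (limma 1, edgeR 0). For the latter at 30 weeks it called 165 (limma 0, edgeR 0). No paired analysis was possible because the column headers carry no replicate number.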
